A study of Mus musculus with 7 samples.

Results

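The transcripts described here are those of 5 CXC chemokine ligands, Cxcl1, Cxcl2, Cxcl3, Cxcl10 and Cxcl16, out of 28719 gene symbols in the count tables, of which 16505 had a molecule in some library. They were chosen by name, not by a threshold on a measured value, and were followed in single mouse neutrophils from healthy tissues and from inflamed sites. Healthy cells were kept when S100a8 and S100a9, the calprotectin subunits that fill neutrophils, made up 3% or more of a cell's unique molecular identifiers (UMIs, each counting 1 captured transcript), and inflamed cells were kept when their deposited ImmGen class began with GN, the prefix of the granulocyte classes.

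CXC chemokines are small secreted proteins that bind heparan sulphate on vessel walls and draw leukocytes along a gradient through G-protein coupled receptors. The ligands with a Glu-Leu-Arg motif before the first cysteine, here CXCL1, CXCL2 and CXCL3, act through CXCR2 and recruit neutrophils, and neutrophils that have already arrived can make more of them. CXCL10 lacks that motif, is classically induced by interferons, and recruits activated T cells and NK cells through CXCR3. CXCL16 is unusual in being made as a membrane protein that binds CXCR6, and ADAM10 and ADAM17 can shed it.

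All cells were sorted through a gate for CD11b+ Ly6G+ propidium iodide-negative cells from male C57BL/6J mice, and each library or condition held cells pooled from 3 mice. Healthy bone marrow, blood and spleen were each profiled in 2 separate runs with 10X 3′ v2 chemistry, with mice of 6 weeks in run 1 and 8 weeks in run 2. All 3 tissues of one run were taken from the same animals. A further library, made with v3 chemistry, held 5 conditions marked by hashtag antibodies, among them blood of untreated mice. Blood and joint lavage came from mice given K/BxN serum intraperitoneally on days 0 and 2 and taken on day 7 (arthritic blood and joint). Peritoneal lavage was taken 3 h after 25 ng IL-1β intraperitoneally, and bronchoalveolar lavage 3 h after 25 ng IL-1β intranasally (lung). Treated mice were 8 weeks old when treatment began, so the arthritic mice were older when taken than the IL-1β mice. The study's methods state no age for the untreated mice of this library. The study's methods state ketamine and xylazine anesthesia before the intranasal IL-1β and none for the peritoneal mice. The intranasal volume was also smaller than the intraperitoneal one. K/BxN serum carries antibodies to glucose-6-phosphate isomerase and causes a transferred arthritis that lasts days, whereas IL-1β gives an acute local influx. The Ly6G gate is meant to leave out resident macrophages, epithelium and stroma, so the values are those of the sorted cells and not of the tissue. Markers of other cell types that were still detected are given below.

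The healthy libraries gave 1135 to 3672 cells each (1360064 to 9104133 UMIs, median 775 to 2698.5 per cell), and the inflammation library gave 4852 of 4856 cells (16375857 UMIs, median 3427). In run 2 spleen, 46.2% of barcodes passed the S100a8 and S100a9 limit, and 1562 of the barcodes that failed had a B-cell marker. The conditions held 509 healthy blood, 814 arthritic blood, 2857 joint, 292 peritoneal and 380 lung cells, and between 61 and 155 cells of each had under 1000 UMIs. Each library pair shared 0 to 36 cell barcodes. All 10 of 10 neutrophil markers were detected in every condition. Monocyte and macrophage markers were detected for 7 to 11 of 11 genes, with a summed level of 283 to 389 CPM (a gene's UMIs scaled to 1000000 UMIs of the cells used) and Ccr2 at 0 in 4 conditions. Csf1r, Ly6c2 and Adgre1 made up most of that sum, and single markers moved more than it did: in the joint 4 of 9 compared (Ly6c2, Fcgr1, C1qa and Cx3cr1) were 2-fold or more higher than in healthy blood and 1 (Csf1r) lower, and 5 of 9 (Fcgr1, C1qa, C1qb, C1qc and Cx3cr1) were higher than in arthritic blood. Their part in the joint values was not tested. Dendritic cell markers summed to 0 to 1.78 CPM, stromal and epithelial markers to 0 to 5.05 CPM, NK cell markers to 0 to 0.194 CPM, T cell markers to 12.4 to 24.0 CPM, B cell markers to 22.0 to 209 CPM, platelet markers to 2.12 to 11.4 CPM and erythroid markers to 0.757 to 5.20 CPM. With 1 pool per condition no test between the conditions was possible, and every interval given for them covers counting error only.

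Cxcl3, Cxcl1, Cxcl2 and Cxcl10 lie on chromosome 5, and Cxcl16 lies on chromosome 11. In GRCm38 (mm10) the genes are protein coding at chr5:90786103-90789600 (Cxcl3, plus strand), chr5:90891241-90893115 (Cxcl1, plus), chr5:90903871-90905938 (Cxcl2, plus), chr5:92346638-92348889 (Cxcl10, minus) and chr11:70453983-70459984 (Cxcl16, minus). Cxcl1 and Cxcl2 are 10755 bases apart, Cxcl3 and Cxcl1 101640 bases, and Cxcl2 and Cxcl10 1440699 bases. Of the 2121 runs of 31 bases in Cxcl2 transcripts, 161 (7.59%) also occur in Cxcl3, and no other pair shares one. Of the 837 in the last 500 bases of Cxcl2 transcripts, where 3′ reads fall, 91 are among them, against 0 of 940 in the last 500 bases of Cxcl3. A small part of Cxcl2 reads could therefore match Cxcl3 as well, and the effect on the counts was not tested.

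The proximal promoters of Cxcl1, Cxcl2, Cxcl3 and Cxcl10 are shown because the first 3 were highest in the lung and the last in the peritoneum. The RefSeq windows of 250 bases up to the annotated start (GRCm38.p6) are chr5:90890995-90891244, chr5:90903649-90903898 and chr5:90785851-90786100 on the plus strand for Cxcl1, Cxcl2 and Cxcl3, and chr5:92348890-92349139 on the minus strand for Cxcl10. The last bases of the Cxcl1 and Cxcl2 windows lie inside the gene as the GENCODE annotation starts it. Capitals mark matches, searched on both strands, to an NF-kB type motif (GGG, any 3 bases, TTCC), an interferon-response type motif (GAAA, any 2 bases, GAAA) and a TATA type motif (ATAAAA).
Cxcl1: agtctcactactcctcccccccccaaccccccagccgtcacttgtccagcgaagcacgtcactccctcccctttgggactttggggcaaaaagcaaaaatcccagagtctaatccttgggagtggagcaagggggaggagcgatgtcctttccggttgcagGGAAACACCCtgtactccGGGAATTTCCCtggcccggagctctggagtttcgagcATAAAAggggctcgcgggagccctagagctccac
Cxcl2: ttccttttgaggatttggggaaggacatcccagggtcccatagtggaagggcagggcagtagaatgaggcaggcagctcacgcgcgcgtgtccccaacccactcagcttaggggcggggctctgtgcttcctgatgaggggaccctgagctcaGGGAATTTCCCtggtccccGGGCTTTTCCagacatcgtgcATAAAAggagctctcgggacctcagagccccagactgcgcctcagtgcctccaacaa
Cxcl3: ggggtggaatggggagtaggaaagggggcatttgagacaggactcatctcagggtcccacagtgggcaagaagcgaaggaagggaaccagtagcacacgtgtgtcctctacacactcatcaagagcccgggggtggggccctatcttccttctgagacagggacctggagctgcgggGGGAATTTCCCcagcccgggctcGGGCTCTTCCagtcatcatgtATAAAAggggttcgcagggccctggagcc
Cxcl10: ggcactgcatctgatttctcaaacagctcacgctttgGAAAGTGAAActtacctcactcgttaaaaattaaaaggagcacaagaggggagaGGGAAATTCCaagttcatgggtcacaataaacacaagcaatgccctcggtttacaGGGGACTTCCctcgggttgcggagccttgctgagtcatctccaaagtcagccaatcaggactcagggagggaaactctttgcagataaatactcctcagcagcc
Each of the Cxcl1, Cxcl2 and Cxcl3 windows held the same GGGAATTTCC, beginning 71, 97 and 73 bases before the start, which also matches the opposite strand 1 base further on. Each held another match nearby: GGAAACACCC, on the opposite strand, beginning 89 bases before the Cxcl1 start, GGGCTTTTCC beginning 78 bases before the Cxcl2 start, and GGGCTCTTCC beginning 50 bases before the Cxcl3 start. Cxcl10 held GGGAAATTCC and GGGGACTTCC, beginning 159 and 104 bases before its start, and was the only one of the 4 with the interferon-response type motif, GAAAGTGAAA, beginning 213 bases before it. ATAAAA began 34, 57 and 29 bases before the starts of Cxcl1, Cxcl2 and Cxcl3 and was not in the Cxcl10 window. Among 32536 RefSeq windows of the same length, 4.65% held the NF-kB type motif, 2.98% the interferon-response type motif and 16.9% the TATA type motif on either strand. A match is a description of the letters and not a measured binding site.

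In healthy tissues the 5 ligands were rare. The tables of run 2 list every gene. Cxcl2 had 40 UMIs in blood, 21 in bone marrow and 19 in spleen of that run, which is 11.5 (95% Poisson interval 8.21 to 15.6), 2.31 (1.43 to 3.53) and 9.71 (5.85 to 15.2) CPM. Cxcl2 UMIs sat in 23 of 3672 blood cells (0.626%), 20 of 3426 in bone marrow (0.584%) and 12 of 2010 in spleen (0.597%). Single cells held up to 13, 2 and 6 Cxcl2 UMIs in blood, bone marrow and spleen, where the median cell had 826, 2133.5 and 775 UMIs of all genes. With each cell thinned at random to 500 UMIs, so that depth is equal, the shares were 0.245%, 0.263% and 0.299%. B-cell-marker barcodes of the same libraries, which should lack Cxcl2, had it in 0 of 99, 0 of 283 and 1 of 1562. The S100a8 and S100a9 limit had little bearing on this gene, with 1 Cxcl2 UMI each among the 187 cells just below it (2 to 3%) and the 160 just above it (3 to 4%).

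Cxcl10 sat in fewer cells than Cxcl2 and was more concentrated. Run 2 gave 15 Cxcl10 UMIs in blood, 11 in bone marrow and 21 in spleen, or 4.31 (2.41 to 7.11), 1.21 (0.603 to 2.16) and 10.7 (6.64 to 16.4) CPM. These UMIs came from 4, 4 and 8 cells, and a single cell held 12 of the blood UMIs, 8 of the bone marrow UMIs and 8 of the spleen UMIs. In each of the 4 healthy libraries with such cells, the type I interferon response genes (15 genes such as Isg15 and Ifit3, which block viral replication) took a higher share of UMIs in the Cxcl10 cells than in the rest. The shares were 4.18% against 0.211% in run 1 blood (2 Cxcl10 cells), 2.07% against 0.168% in run 2 blood (4 cells), 0.172% against 0.0375% in run 2 bone marrow (4 cells) and 0.363% against 0.158% in run 2 spleen (8 cells). Few cells stand behind these shares.

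Cxcl3, Cxcl16 and Cxcl1 were at or near 0 in healthy cells. Run 2 gave 1, 1 and 0 Cxcl3 UMIs in blood, bone marrow and spleen, and 1, 0 and 0 Cxcl16 UMIs. Cxcl1 had 0 UMIs in all 3, which allows up to 0.862, 0.330 and 1.53 CPM (3 UMIs). Run 1 is less informative, since its tables hold only genes with more than 10 UMIs. Cxcl10 in blood was the only ligand listed there, with 2 UMIs in 2 neutrophils (1.47 CPM). The others had at most 10 UMIs in a run 1 library, or at most 5.08 CPM in blood, 2.12 in bone marrow and 3.48 in spleen over all barcodes.

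No ligand entered the test of healthy tissues, an edgeR quasi-likelihood fit with Benjamini-Hochberg adjustment over the 6588 genes listed in all 6 libraries that passed a filter on low counts, with run as a block. In it, 30.9% of genes differed between blood and bone marrow, 4.86% between spleen and bone marrow and 0.167% between spleen and blood. When genes missing from the run 1 tables were set at 0, an alternative added after seeing the data, Cxcl2 and Cxcl10 passed the filter and 0 of these 2 differed in any contrast, where 21.7%, 2.75% and 0.0512% of 7809 genes did. In that edgeR fit Cxcl2 had a log2 fold change of 1.92 in blood over bone marrow (adjusted p = 0.41) and 1.57 in spleen over bone marrow (adjusted p = 0.669), and Cxcl10 had 2.63 (adjusted p = 0.386) and 2.38 (adjusted p = 0.578). These fits do not show that the tissues were alike.

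Many genes of the receptors and the inducing pathways, in contrast, could be tested in healthy neutrophils, though some were as low as the ligands. Icam1, an NF-kB target, was at 0.712 and 0.556 CPM in bone marrow (runs 1 and 2). Cxcr2, the receptor of the Glu-Leu-Arg ligands, stood at 907 and 1261 CPM in blood, 312 and 1186 CPM in spleen, and 196.5 and 401 CPM in bone marrow (runs 1 and 2). It rose in blood over bone marrow by 1.64 on the log2 scale (edgeR quasi-likelihood, adjusted p = 0.00365). In the same test Cxcr1 also rose in blood over bone marrow, by 3.14 (adjusted p = 0.00277). It was low, at 14.8 and 35.3 CPM in blood and 2.85 and 2.00 CPM in bone marrow. Cxcr4, the receptor that retains neutrophils in marrow, rose by 1.12 (adjusted p = 0.0131). All 3 of 3 receptors tested thus rose in blood over bone marrow, against 15.8% of all genes. The same was found for 10 of 15 NF-kB subunits and feedback targets (1 fell), 3 of 6 inflammatory mediators, 12 of 14 type I interferon response genes, 6 of 6 interferon gamma response genes, 6 of 7 immediate early genes, 4 of 5 genes for decay of chemokine mRNA and 1 of 2 CXCL16-shedding proteases, while 6 of 6 secondary granule genes of immature neutrophils fell, where 15.2% of all genes did. In spleen over bone marrow, where 3.96% of genes rose and 0.896% fell, the counts that rose were 1 of 3 receptors, 2 of 15 NF-kB genes, 2 of 6 mediators, 11 of 14 type I interferon genes, 3 of 6 interferon gamma genes, 4 of 7 immediate early genes, 1 of 5 decay genes, 0 of 2 proteases and 0 of 6 granule genes. No gene of these lists was called between spleen and blood (0 in every list, where 0.137% of genes rose in spleen and 0.0304% fell). These calls rest on the block. Without it no gene was called in either spleen contrast, and in blood over bone marrow 149 of 6588 genes rose and 110 fell. The list calls were then 10 of 14 type I interferon genes and 2 of 6 interferon gamma genes. Further calls were 2 of 7 immediate early genes and 1 of 5 decay genes, with none in the other lists. Adjusted p was 0.164 for Cxcr2, 0.0768 for Cxcr1 and 0.0942 for Cxcr4 (edgeR quasi-likelihood). The refits that follow also called other numbers of genes in all, which the last section gives. Leaving out run 1 blood ended the call of Cxcr2 (adjusted p = 0.0768) and Cxcr4 (0.06), and leaving out run 2 blood that of Cxcr1 (0.0538) and Cxcr4 (0.142), as did leaving out run 2 bone marrow for Cxcr4 (0.232). The lists moved too: the NF-kB count was 0 of 15 without run 1 blood, 4 of 15 without run 2 blood, 4 of 15 without run 2 bone marrow and 5 of 15 with DESeq2, the interferon gamma count was 3 of 6 without run 1 blood, and the granule genes that fell were 3 of 6 and 2 of 6 without run 1 and run 2 blood. The mediator count was 2 of 6 without any 1 of the blood or bone marrow libraries, and the protease count 0 of 2. The type I interferon count was 10 to 13 of 14 without any 1 library.

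At the 3 inflamed sites Cxcl2 was among the most abundant transcripts of the cell. Cxcl2 had 236 UMIs in healthy blood, 455 in arthritic blood, 76339 in the joint, 6375 in the peritoneum and 18648 in the lung. On the CPM scale these are 209.8 (184 to 238), 168.9 (154 to 185), 7416, 6763 and 14116. Cxcl2 ranked 711th and 752nd among all genes in healthy and arthritic blood, and 13th, 13th and 8th in joint, peritoneum and lung. The level over healthy blood of the same library was 35.3-fold (95% interval of the ratio of rates 31.1 to 40.3) in the joint, 32.2-fold (28.3 to 36.9) in the peritoneum and 67.3-fold (59.2 to 76.8) in the lung. In arthritic blood the ratio was 0.805 (0.687 to 0.946), a log2 ratio of -0.31 that changed sign under TMM scaling, which takes most genes as not differing (0.15), and in cells with at least 1000 UMIs (0.012).

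Cxcl3 separated the sites far more than Cxcl2 did. Cxcl3 had 85, 133, 5762, 1376 and 12228 UMIs in healthy blood, arthritic blood, joint, peritoneum and lung, or 75.6, 49.4, 559.7, 1459.7 and 9256 CPM. Its ratio to healthy blood was 7.41 (5.98 to 9.29) in the joint, 19.3 (15.5 to 24.3) in the peritoneum and 122 (98.98 to 153) in the lung, and 0.654 (0.494 to 0.868) in arthritic blood. Cxcl3 ranked 241st in the joint, 96th in the peritoneum and 11th in the lung. Within a condition the proportion of the 2 transcripts moved accordingly, with 7.55 Cxcl3 UMIs per 100 Cxcl2 UMIs in the joint, 21.6 in the peritoneum and 65.6 in the lung, against 36.0 in healthy and 29.2 in arthritic blood. The 10% of cells with most Cxcl3 held 78.1% of Cxcl3 UMIs in the joint, 62.9% in the peritoneum and 42.2% in the lung.

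Cxcl1, a CXCR2 ligand of many stromal and epithelial cells, stayed low. It had 0 UMIs in healthy blood, 2 in arthritic blood, 20 in the joint, 13 in the peritoneum and 62 in the lung, or 0, 0.743, 1.94, 13.8 and 46.9 CPM. With 0 UMIs in healthy blood allowing up to 2.67 CPM (3 UMIs), the level was at least 5.17-fold higher in the peritoneum and at least 17.6-fold higher in the lung, and no ratio can be given for the joint. Cxcl1 was also sparse by cell: the UMIs sat in 15 joint, 6 peritoneal and 9 lung cells, and 5 lung cells held 57 of the 62.

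Cxcl10, the interferon-inducible ligand, had another order of sites. It had 9 UMIs in healthy blood, 11 in arthritic blood, 915 in the joint, 522 in the peritoneum and 93 in the lung, or 8.00, 4.08, 88.9, 554 and 70.4 CPM. Its ratio to healthy blood was 69.2 (36.2 to 152) in the peritoneum, 11.1 (5.83 to 24.4) in the joint and 8.80 (4.44 to 19.8) in the lung, and 0.510 (0.192 to 1.39) in arthritic blood, an interval that includes no change. Single cells carried much of it: 5 joint cells, 7 peritoneal cells and 2 lung cells held 50% of their condition's Cxcl10 UMIs, and 1 joint cell alone had 167. Without the 1% of cells with most Cxcl10 the log2 ratio to healthy blood was 2.47 in place of 3.47 in the joint and 7.65 in place of 6.11 in the peritoneum, the same share of cells being left out of healthy blood.

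Cxcl16 was detected mainly in the joint, with 20 UMIs in 19 of 2857 cells. It had 0 UMIs in both blood conditions and 1 each in peritoneum and lung. Depth sets what this means, since the joint had the most UMIs: the lung rate was 0.390 of the joint rate with an interval of 0.00940 to 2.44, so a difference between these sites was not detectable. The shedding proteases were present throughout, Adam10 at 28.8 to 68.5 CPM and Adam17 at 49.96 to 127 CPM, with Adam17 past 2-fold over healthy blood in the joint and Adam10 past 2-fold lower in the lung (ratio 0.420, but 0.785 under TMM scaling). In the peritoneum Adam17 was at a ratio of 1.64, which was past 2-fold at 3.08 under TMM scaling.

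**Figure D1:**
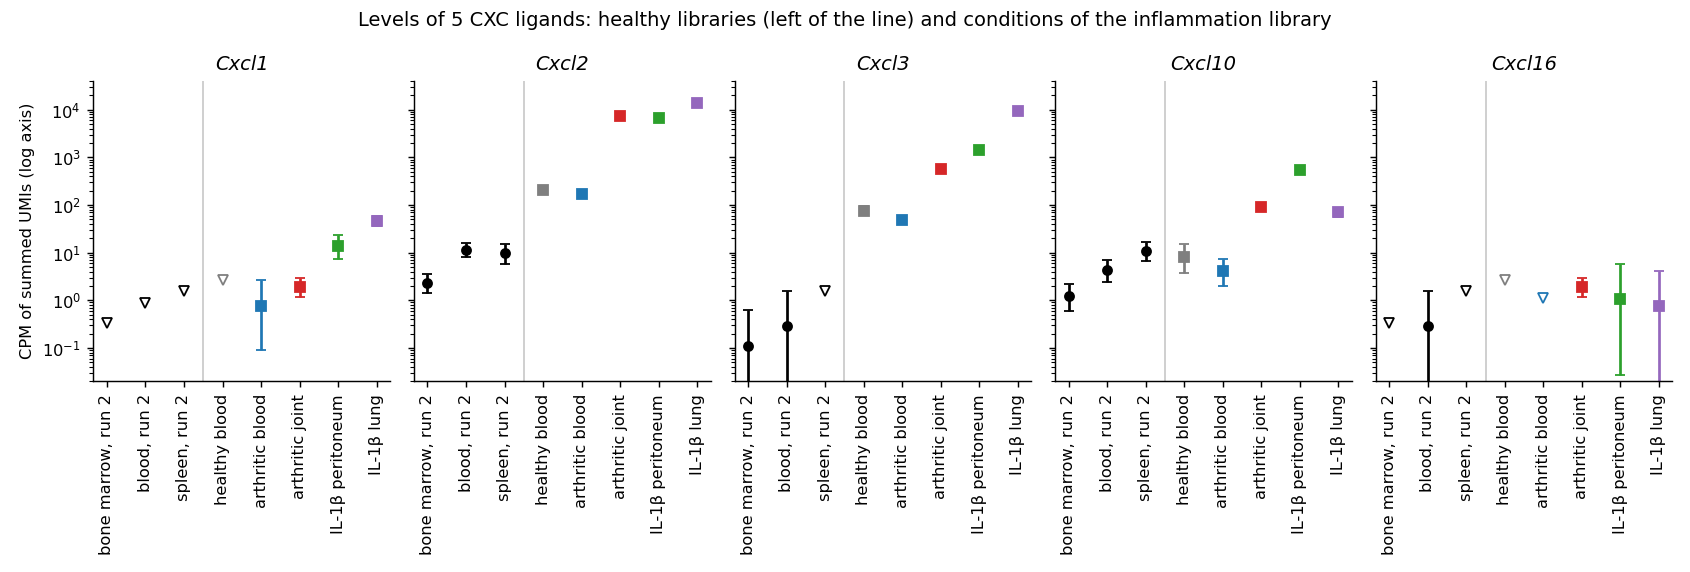
Level of each ligand (CPM, log axis) in the 3 healthy run 2 libraries (circles, left of the line) and the 5 hashtag conditions (squares), with 95% Poisson intervals and open triangles for the upper limit at 0 UMIs. Cxcl2 lies between 6763 and 14116 CPM at the 3 sites and at 209.8 and 168.9 CPM in the blood conditions, Cxcl3 climbs from joint to lung, and Cxcl10 is highest in the peritoneum.

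The plot of levels by library and condition shows these orders side by side. By a fixed rule of 2-fold among genes with at least 20 UMIs over both conditions, the ligands higher than in healthy blood were Cxcl2, Cxcl3 and Cxcl10 (3 of 5 compared) in the joint, where 10.7% of genes were higher and 25.9% lower, the same 3 of 3 in the peritoneum (10.2% higher, 51.8% lower), and Cxcl1, Cxcl2, Cxcl3 and Cxcl10 (4 of 4) in the lung (10.9% higher, 49.3% lower). In arthritic blood 0 of 3 ligands passed 2-fold, where 1.21% of genes were higher and 11.3% lower. The median log2 ratio of all genes was below 0, at -0.40 in arthritic blood, -0.47 in the joint, -1.06 in the peritoneum and -0.97 in the lung, and TMM scaling raised every log2 ratio to healthy blood by 0.461 to 0.911. The ligand ratios at the sites were thus larger, not smaller, relative to the other genes.

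The conditions were also compared directly. In the joint over arthritic blood, Cxcl2 was 43.9-fold (40.03 to 48.2) higher, Cxcl10 21.8-fold (12.1 to 43.8) and Cxcl3 11.3-fold (9.54 to 13.6), where 15.5% of genes were 2-fold or more higher and 9.34% lower. Cxcl1 had a ratio of 2.62 there with an interval of 0.636 to 23.1. Between the 2 sites given the same amount of IL-1β for the same time, the lung exceeded the peritoneum 2.09-fold (2.03 to 2.15) in Cxcl2, 6.34-fold (6.00 to 6.71) in Cxcl3 and 3.40-fold (1.85 to 6.75) in Cxcl1, where 9.72% of genes were 2-fold or more higher. Cxcl10 went the other way, at 0.127 (0.101 to 0.159) of the peritoneal level, where 8.60% of genes were 2-fold or more lower. The 3 CXCR2 ligands and the CXCR3 ligand therefore had opposite directions between these sites. Route, volume and anesthesia also differed between the 2 IL-1β conditions and cannot be told apart from site. Against the joint, Cxcl3 was 16.5-fold (16.0 to 17.1) higher in the lung (6.97% of genes 2-fold or more higher, 32.9% lower) and 2.61-fold higher in the peritoneum (7.11% higher, 33.2% lower). Cxcl1 was 24.2-fold (14.4 to 42.2) and 7.10-fold (3.24 to 14.99) higher in lung and peritoneum, and Cxcl2 was at ratios of 1.90 and 0.912. Under TMM scaling Cxcl2 was instead higher in the peritoneum than in the joint, and past 2-fold higher in the lung than in the joint. The joint and IL-1β conditions differ in site, agent, time and age when taken, which cannot be told apart.

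Most cells at the sites had at least 1 Cxcl2 UMI. It was detected in 92.4% of joint, 95.5% of peritoneal and 93.7% of lung cells, and in 35.6% of healthy blood and 41.2% of arthritic blood cells. With cells thinned to 1000 UMIs (354 healthy blood, 674 arthritic blood, 2734 joint, 231 peritoneal and 286 lung cells deep enough) the shares were 14.97% (Clopper-Pearson 11.4 to 19.1) in healthy blood, 13.2% (10.7 to 16.0) in arthritic blood, 81.7% (80.2 to 83.2) in the joint, 87.0% (82.0 to 91.1) in the peritoneum and 87.8% (83.4 to 91.3) in the lung. Shares with at least 2 Cxcl2 UMIs at this depth were 1.41%, 1.34%, 70.3%, 77.5% and 80.4%, in the same order. The amount per cell was higher in the lung than at the other sites. The median was 5 Cxcl2 UMIs in joint and peritoneum and 10 in lung, and 28.3%, 26.4% and 50.7% of cells had at least 10. Among the thinned blood cells none had 10 UMIs, which allows a share of up to 0.847% in healthy and 0.445% in arthritic blood. Unthinned, 1 of 509 healthy blood cells and 0 of 814 arthritic blood cells had at least 10, and single cells held up to 16 Cxcl2 UMIs in healthy blood, 7 in arthritic blood, 354 in the joint, 183 in the peritoneum and 489 in the lung.

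Cxcl3 differed between sites in the share of cells as well as in the amount. At 1000 UMIs it was detected in 5.65% of healthy blood, 5.04% of arthritic blood, 20.1% (18.6 to 21.6) of joint, 35.5% (29.3 to 42.0) of peritoneal and 78.7% (73.5 to 83.3) of lung cells. At least 10 Cxcl3 UMIs were found in 0.439% of joint, 3.46% of peritoneal and 38.5% of lung cells. Unthinned, 92 lung cells with at least 50 Cxcl3 UMIs held 8833 of the 12228, against 3 such cells in the joint and 2 in the peritoneum. Cxcl10 was detected in 0.847% of healthy blood, 0.148% of arthritic blood, 1.68% (1.23 to 2.24) of joint, 16.0% (11.5 to 21.4) of peritoneal and 2.80% (1.22 to 5.44) of lung cells. The peritoneum was thus the site with the widest spread of this ligand over cells. Cxcl1 was in 0.219% of joint, 0.866% of peritoneal and 2.098% of lung cells, and Cxcl16 in 4 joint cells and 1 peritoneal cell.

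**Figure D2:**
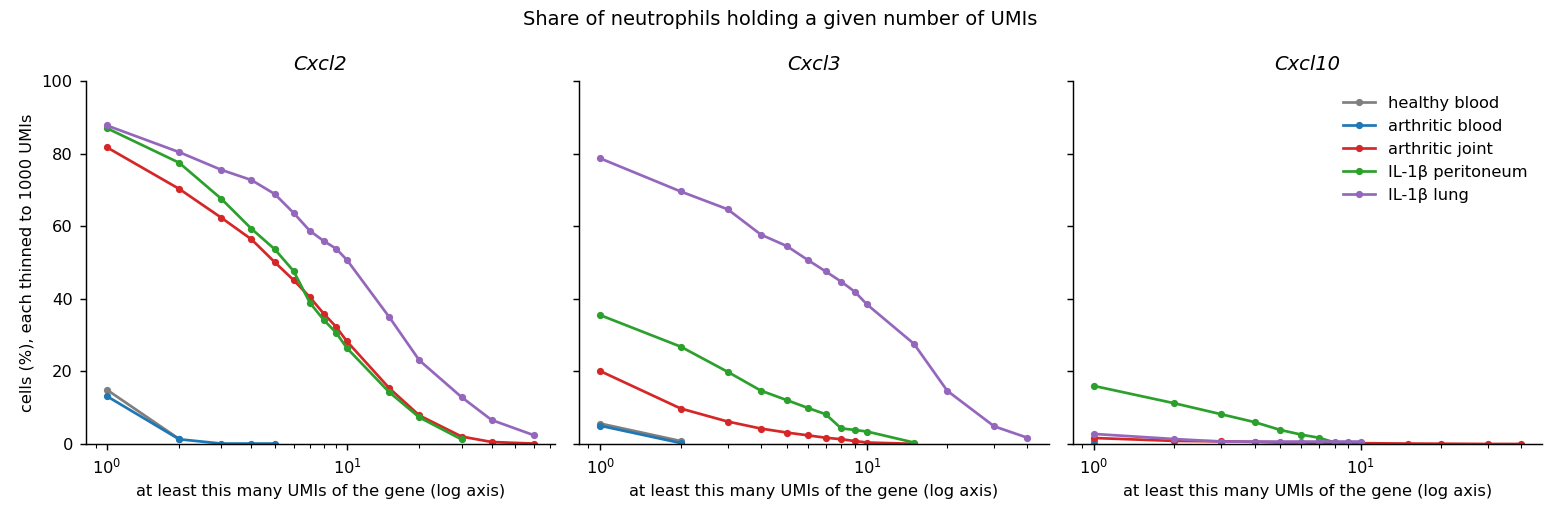
Share of cells (%) with at least the number of UMIs on the horizontal axis, for cells thinned to 1000 UMIs, by ligand, with 1 line per condition. At 10 UMIs the Cxcl2 lines stand at 28.3% in joint, 26.4% in peritoneum and 50.7% in lung, and the Cxcl3 lines at 0.439%, 3.46% and 38.5%.

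The plot of cells by UMI number shows smooth declines, with no gap between cells of low and high number, for Cxcl2 and Cxcl3.

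The low Cxcl2 of the blood conditions sits in a library whose other cells were rich in Cxcl2, and free RNA from those cells can enter any droplet. Only 4 cells of the library were not of a GN class, so the level in a cell type that should lack Cxcl2 could not be measured. Shallow and deep cells give a related view. In healthy blood, cells under 1000 UMIs held 0.484 (0.381 to 0.607) Cxcl2 UMIs each and cells with 1000 or more held 0.455 (0.387 to 0.531), and Cxcl3 was at 0.168 and 0.167. The number did not grow with the cell's own RNA there. At the sites it did: 7.51 and 27.6 Cxcl2 UMIs in the joint, 5.54 and 26.1 in the peritoneum, 10.3 and 61.8 in the lung. Arthritic blood lay between, with 0.314 and 0.610. Healthy blood of run 2, a separate library with v2 chemistry, had 11.5 Cxcl2 CPM against 209.8 here. The part of free RNA in the values of blood and sites was not tested, and the ratios to healthy blood above use the blood values.

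**Figure D3:**
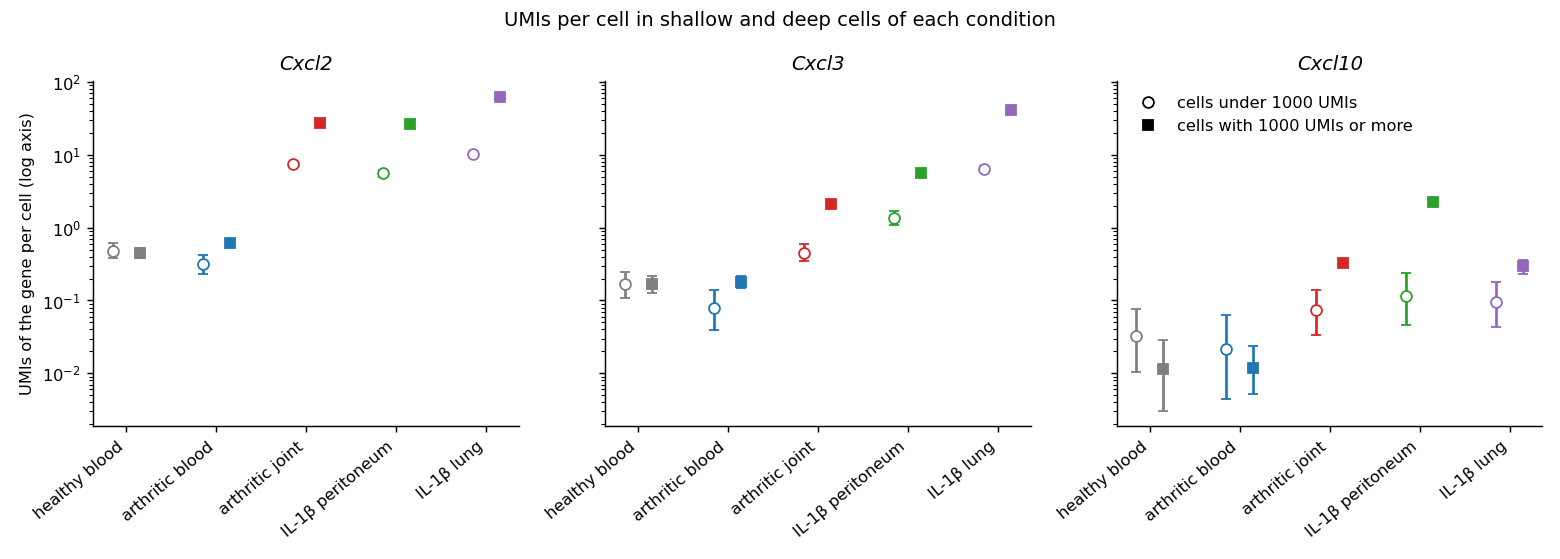
UMIs of Cxcl2, Cxcl3 and Cxcl10 per cell (log axis) in cells under 1000 UMIs (open circles) and cells with 1000 UMIs or more (filled squares) of each condition, with 95% Poisson intervals. In healthy blood both classes of cells have alike numbers (0.484 and 0.455 for Cxcl2), and at the sites the deep cells have more.

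The plot of shallow and deep cells also shows Cxcl10 in the peritoneum at 0.115 UMIs per shallow and 2.23 per deep cell.

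Most lung cells had 2 ligands at once, and most joint cells had 1. Of the 5 ligands, at 1000 UMIs, joint cells had 0 in 16.1%, 1 in 64.3%, 2 in 19.3% and 3 in 0.329%. Peritoneal cells had 0 in 10.8%, 1 in 44.6%, 2 in 38.5% and 3 in 6.06%. Lung cells had 0 in 8.04%, 1 in 15.7%, 2 in 73.1% and 3 in 3.15%. In blood, 79.9% of healthy and 82.2% of arthritic cells had none, and no cell of any condition had 4 or 5.

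At the sites most Cxcl3 cells also had Cxcl2, as did most cells without Cxcl3. Cxcl2 was detected in 92.0% of cells with Cxcl3 and 79.2% of cells without it in the joint, 95.1% and 82.6% in the peritoneum and 95.1% and 60.7% in the lung. In healthy blood 5 of 20 Cxcl3 cells had Cxcl2, and in arthritic blood 4 of 34. Conversely, Cxcl3 was detected in 22.6% (20.9 to 24.4) of joint cells with Cxcl2 and in 8.82% (6.48 to 11.7) of those without. The shares were 38.8% (32.0 to 45.9) against 13.3% (3.76 to 30.7) in the peritoneum and 85.3% (80.3 to 89.4) against 31.4% (16.9 to 49.3) in the lung. The intervals did not overlap at any of the 3 sites. Cells with Cxcl3 also had more Cxcl2, a mean of 10.5 UMIs against 6.29 in the joint, 10.2 against 5.26 in the peritoneum and 16.2 against 4.75 in the lung. In the blood conditions the shares were 9.43% against 4.98% (healthy) and 4.49% against 5.13% (arthritic), with overlapping intervals.

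**Figure D4:**
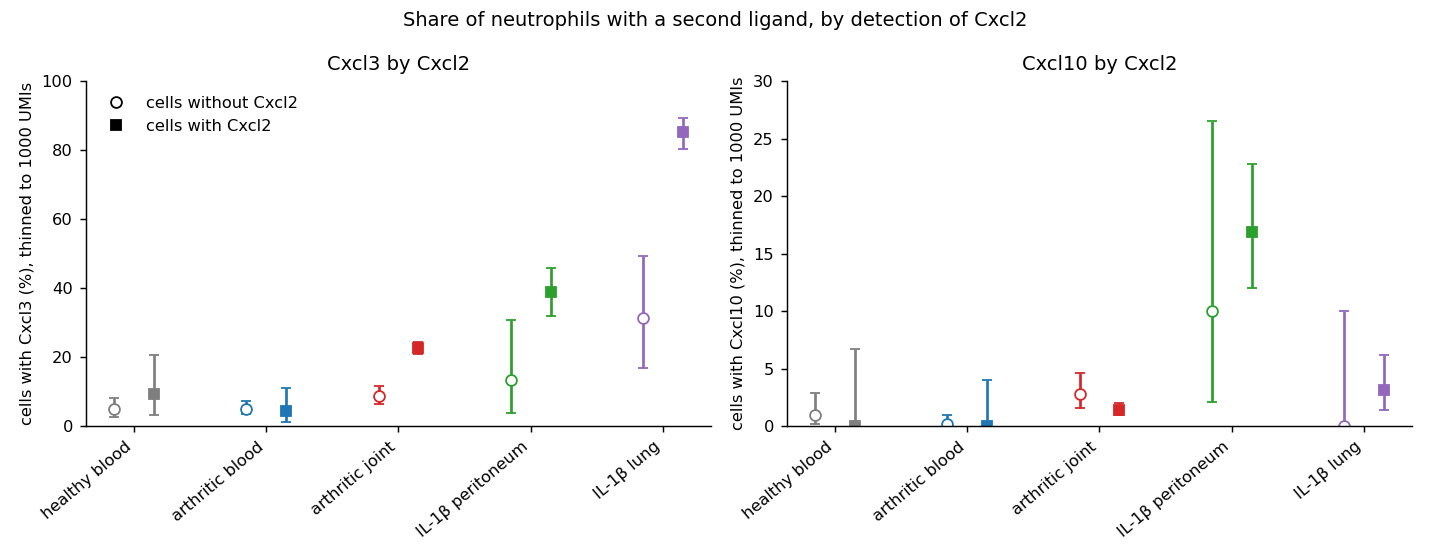
Share of cells (%) with Cxcl3 and with Cxcl10 among cells with and without Cxcl2, at 1000 UMIs, with Clopper-Pearson bars, by condition. Cxcl3 is more frequent in Cxcl2 cells at all 3 sites (22.6% against 8.82% in the joint), and the Cxcl10 intervals overlap at each site.

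Cxcl10 did not follow Cxcl2 in this way. It was in 1.43% (0.981 to 2.02) of joint cells with Cxcl2 and 2.81% (1.54 to 4.66) of those without, as the plot of co-detection shows. In the peritoneum the shares were 16.9% and 10.0% and in the lung 3.19% and 0% (0 of 35 cells). The intervals overlapped at each site. Of the Cxcl10 cells, 32 of 46 in the joint, 34 of 37 in the peritoneum and 8 of 8 in the lung contained Cxcl2. Joint cells with Cxcl10 had a mean of 4.74 Cxcl2 UMIs and those without 7.19. The peritoneum had 8.78 and 6.66, and the lung 6.75 and 13.9. Of the few cells with Cxcl1 at this depth, 4 of 6 in the joint, 2 of 2 in the peritoneum and 5 of 6 in the lung had Cxcl2, and none had Cxcl10. Unthinned, all 15, 6 and 9 Cxcl1 cells of these sites had Cxcl2, and 2 of the 6 in the peritoneum had Cxcl10.

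The Cxcl10 cells stood out by their interferon genes at each site. Type I interferon response genes (which do not include Cxcl10) took 3.42% (3.25 to 3.59) of UMIs in joint cells with Cxcl10 and 0.369% in those without. The shares were 0.297% (0.244 to 0.358) against 0.150% in the peritoneum and 0.700% (0.529 to 0.909) against 0.127% in the lung. Interferon gamma response genes, such as the guanylate-binding proteins, gave 0.426% against 0.0427% in the joint, 0.162% against 0.0598% in the peritoneum and 0.175% against 0.0331% in the lung. The inflammatory mediators did not follow, with 1.70% against 1.81%, 3.27% against 3.08% and 2.01% against 3.56%. NF-kB genes were higher in Cxcl10 cells, 0.333% against 0.203% in the joint, 1.46% against 1.12% in the peritoneum and 1.06% against 0.567% in the lung.

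**Figure D5:**
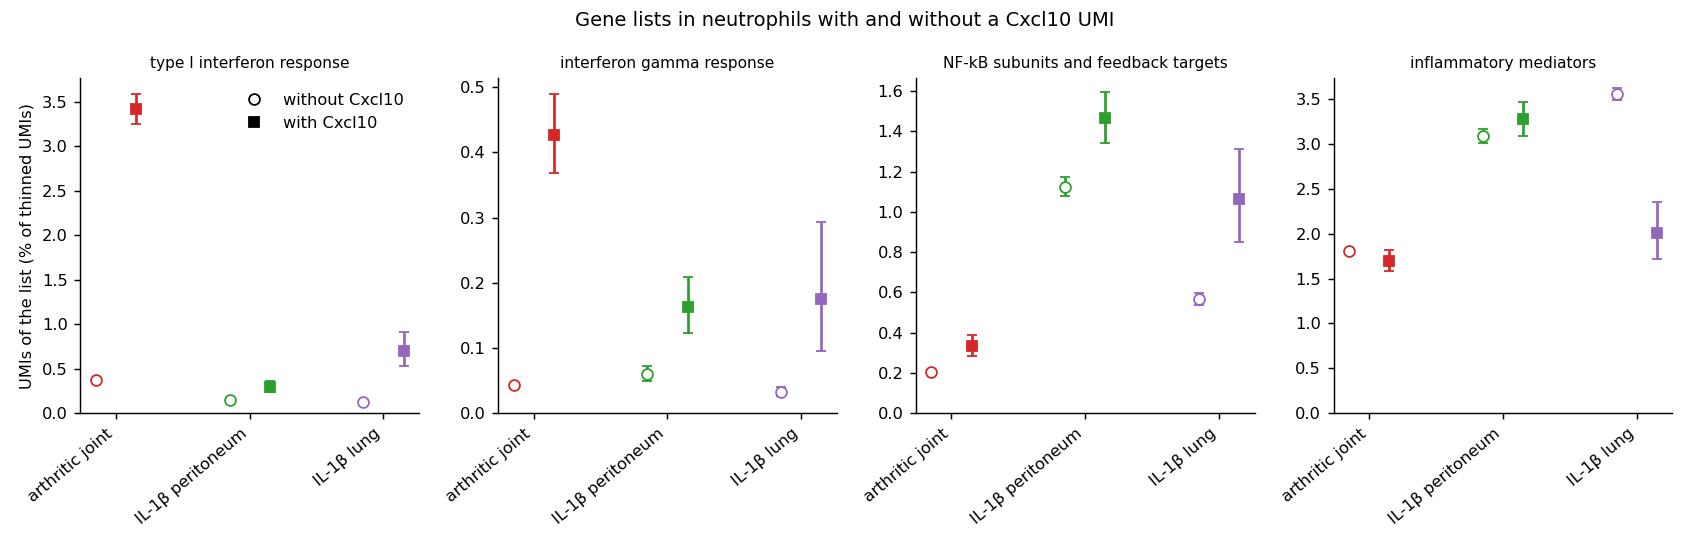
Share of UMIs (%) taken by 4 gene lists in cells with and without Cxcl10 (thinned to 1000 UMIs) at the 3 sites, with 95% intervals covering counting error only. The type I interferon share is 3.42% against 0.369% in the joint, and the mediator shares are close to each other in joint and peritoneum.

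The plot of gene lists in Cxcl10 cells shows the widest gap in the joint. Neutrophil markers took less of these cells' UMIs, 13.3% against 16.5% in the joint, 15.3% against 18.6% in the peritoneum and 12.5% against 19.4% in the lung. Monocyte and macrophage markers took 0.0543% against 0.0298%, 0.0243% against 0.0392% and 0.05% against 0.0270%, so they were higher in the joint and lung Cxcl10 cells and lower in the peritoneal ones. Among the strongest, 17 joint cells with at least 10 Cxcl10 UMIs held 748 of the 915, with a macrophage marker share of 0.0635% against 0.0299% in the other cells, a median S100a8 and S100a9 share of 6.17% against 13.1%, and 4 of the 17 under 3%. The part of other cell types in these values was not tested. In the peritoneum 18 such cells held 400 of the 522 UMIs.

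Cells with Cxcl2 had higher shares of the mediator genes at all 3 sites. Inflammatory mediators took 1.98% of UMIs in joint cells with Cxcl2 and 1.02% in those without, 3.28% against 1.98% in the peritoneum and 3.75% against 1.77% in the lung. Type I interferon genes took 0.366% against 0.665% in the joint and 0.165% against 0.230% in the peritoneum, but 0.153% against 0.0686% in the lung. NF-kB genes were somewhat higher with Cxcl2 (0.217% against 0.151%, 1.22% against 0.937%, 0.600% against 0.446%). Cells with Cxcl3 had mediator shares of 2.19% against 1.71%, 3.40% against 2.96% and 3.87% against 2.18%, and type I interferon shares of 0.303% against 0.450%, 0.167% against 0.177% and 0.135% against 0.174%.

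The genes most like Cxcl2 across cells, by the difference in detection between cells with and without it averaged over the 3 sites, were Cxcl3 (31.03 percentage points), Trib1 (23.8), the chemokine Ccl3 (22.8), the cystine transporter Slc7a11 (21.5) and the lipolysis inhibitor G0s2 (18.5). Those least detected with it were Selplg (-17.1 points), the P-selectin ligand used in rolling, the IL-17 receptor Il17ra (-17.0), Irf2bp2 (-16.0), Gpx4 (-15.9) and Anxa2 (-15.6). For Cxcl3 they were Cxcl2 (19.9 points), Thbs1 (15.2), Ccl3 (14.8), the urokinase receptor Plaur (13.8) and glycerol kinase Gk (13.1), and on the other side Akap13 (-11.6), the interferon-induced Oasl2 (-11.1), Pfdn5 (-10.9), Apbb1ip (-10.2) and Tmem243 (-10.2). These are descriptions over cells of 1 library, in which a thinned cell rich in one transcript has room for fewer others. Cxcl1, Cxcl10 and Cxcl16 had fewer than 20 positive cells at some site and were not compared.

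The pathways around the ligands stood higher in different combinations at the sites, counted as genes 2-fold or more above or below healthy blood (background shares as above). In the joint, 6 of 16 NF-kB genes, 9 of 10 mediators and 12 of 14 type I interferon genes were higher, with median log2 ratios of 0.66, 2.80 and 2.44. In the peritoneum 15 of 16 NF-kB genes and 10 of 10 mediators were higher, with medians of 3.40 and 4.76, while 3 of 13 type I interferon genes were higher and 2 lower. In the lung 13 of 16 NF-kB genes and 10 of 10 mediators were higher, with medians of 2.35 and 4.29, while 1 of 13 type I interferon genes was higher and 4 lower. In arthritic blood 0 of 15 NF-kB genes (1 lower) and 0 of 9 mediators were higher, and 1 of 14 type I interferon genes was. Nfkbia, the NF-kB inhibitor that NF-kB itself induces, ran at 280.0, 246, 700.2, 4308 and 2656 CPM in the order healthy blood, arthritic blood, joint, peritoneum and lung. Nfkbiz, an atypical NF-kB inhibitor family member, ran at 156, 134, 183, 1072 and 395 CPM. The deubiquitinase Tnfaip3 ran at 24.9, 20.8, 77.1, 1065 and 385 CPM. Among the mediators, Il1b, the precursor of IL-1β, ran at 3869, 3784, 7528, 9993 and 12419 CPM. The chemokine Ccl4 ran at 140.5, 80.2, 3204, 3772 and 4718 CPM, and Cd14, the lipopolysaccharide co-receptor, at 103, 141, 3362, 5514 and 8897 CPM. Isg15, an interferon-induced ubiquitin-like protein, was highest in the joint at 795 CPM, against 389 in the peritoneum, 244 in the lung and 123 in healthy blood. Cxcl10, by contrast, was highest in the peritoneum. TMM scaling, applied to these lists after seeing the data, moved some of the counts: 9 of 16 NF-kB genes were then higher in the joint, and 7 of 13 type I interferon genes in the peritoneum and 3 of 13 in the lung, with none lower at either site. In arthritic blood 4 of 14 type I interferon genes were then higher and no NF-kB gene was lower. The share of all genes past 2-fold under TMM scaling was not measured. The TMM counts here and below therefore have no background share, and the shares given above do not apply to them.

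Interferon gamma genes were higher for 4 of 9 in the joint (1 lower), 4 of 8 in the peritoneum (1 lower) and 3 of 8 in the lung (3 lower), and 1 of 7 in arthritic blood. Immediate early genes, which also respond to dissociation, were higher for 5 of 11 in the joint, 2 of 10 in the peritoneum (3 lower) and 2 of 10 in the lung (1 lower), and 0 of 10 in arthritic blood (1 lower). Under TMM scaling the interferon gamma counts were 6 of 8 in the peritoneum (0 lower) and 5 of 8 in the lung (1 lower). The immediate early counts were then 8 of 11, 5 of 10 (1 lower) and 6 of 10 (1 lower) at the sites, and 0 of 10 (0 lower) in arthritic blood. Dusp1, the most abundant of them, ran at 2276, 1736, 3329, 2397 and 3820 CPM. Among 5 genes for proteins that control the decay of chemokine mRNA, 1 was higher in the joint, 3 in the peritoneum (1 lower) and 2 in the lung (1 lower), or 3 in the lung (1 lower) under TMM scaling. The lower one was Zfp36l2, at 863 CPM in healthy blood, 803 in the joint, 41.4 in the peritoneum and 136 in the lung, or ratios of 0.0479 and 0.158 at the IL-1β sites. Zfp36, which encodes tristetraprolin, was at 677, 869.8, 1561 and 1072 CPM, and Zc3h12a, the Regnase-1 endonuclease, at 49.8, 41.9, 417 and 221 CPM, in the same order. Secondary granule genes were higher for 1 of 5 in the joint (2 lower), 4 of 6 in the peritoneum (1 lower), 5 of 6 in the lung (1 lower) and 2 of 4 in arthritic blood (1 lower). Under TMM scaling none of them was lower in the joint or in arthritic blood, and 5 of 6 were higher in the peritoneum. Lcn2, the most abundant of them, ran at 813, 2195, 835, 11753 and 4096 CPM.

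The receptor of these ligands, Cxcr2, stayed within 2-fold in all conditions. Cxcr2 was at 1988 CPM in healthy blood, 1769.6 in arthritic blood, 1410.0 in the joint, 1359 in the peritoneum and 2109 in the lung. No receptor passed 2-fold over healthy blood in arthritic blood, joint or lung (0 of 3, 0 of 4 and 0 of 3). In the joint Cxcr4 came close, at 2028 CPM against 1037, a ratio of 1.95 that was 2.87 under TMM scaling, where 3 of 4 receptors (Cxcr1, Cxcr3 and Cxcr4) passed. Over arthritic blood 2 of 4 (Cxcr3 and Cxcr4) were higher in the joint. Of the receptors, 2 of 3 (Cxcr1 and Cxcr4) were lower in the peritoneum, where Cxcr4 was at 293 CPM, a ratio of 0.282 that was 0.531 under TMM scaling and then no longer past 2-fold. Cells with and without a Cxcr2 UMI had Cxcl2 in 80.01% and 85.2% in the joint, 82.6% and 92.9% in the peritoneum and 87.0% and 90.9% in the lung, and in 16.7% and 4.17% in healthy blood. Cxcr6, the CXCL16 receptor, and the scavengers Ackr1 and Ackr3 had 0 UMIs in every condition, as did Cxcl5, Cxcl9, Cxcl12, Cxcl13 and Cxcl17 among the other ligands. Ppbp had 9 UMIs, Cxcl15 5, Cxcl14 2 and Pf4, a platelet ligand, 39 over the 5 conditions. Cxcl2, Cxcl3 and, at a lower level than either at each site, Cxcl10 were therefore the CXC ligands that these cells carried in number.

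The deposited ImmGen classes, which assign each cell its most similar sorted reference population, split the ligands within a site. In the joint, 2260 GN.Arth.SynF cells had 8495 Cxcl2 CPM, 656 Cxcl3 CPM and 19.2 Cxcl10 CPM. The 245 GN.Thio.PC cells had 3805, 154 and 1022 CPM, the 96 GN.UrAc.PC cells 1493, 78.2 and 349.7 CPM, and the 255 GN.Bl cells 1501, 80.4 and 30.4 CPM. Most Cxcl10 of the joint was thus outside the main class, which had the most Cxcl2. In the peritoneum, 101 GN.Arth.SynF cells had 8454, 2213 and 344 CPM and 163 GN.Thio.PC cells 6206, 1044 and 923 CPM of Cxcl2, Cxcl3 and Cxcl10. In the lung, 275 GN.Arth.SynF cells had 15430.3, 10222 and 30.0 CPM and 74 GN.Thio.PC cells, with a median of only 675.5 UMIs, had 8751, 5323 and 649.9 CPM. At all 3 sites the summed UMIs of the GN.Thio.PC class had more Cxcl10 and less Cxcl2 and Cxcl3 than those of the GN.Arth.SynF class. Few cells carried this Cxcl10: in the GN.Thio.PC class, cells with at least 10 Cxcl10 UMIs numbered 11 of 245 in the joint (578 of 639 UMIs), 12 of 163 in the peritoneum (294 of 380) and 1 of 74 in the lung (40 of 58), and only 32, 38 and 6 cells had any. Without such cells, a setting added after seeing the data, Cxcl10 was at 105, 235 and 208 CPM in GN.Thio.PC and at 10.7, 89.2 and 12.4 CPM in GN.Arth.SynF. The classes were assigned from each cell's whole transcriptome, which includes these ligands.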

How the data were processed

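Cells were profiled as described above. Per the labels and the study's methods, the authors aligned reads to mm10 with Cell Ranger and deposited UMI counts per gene and cell, and the authors assigned hashtags with HTODemux and deposited a table that gives each inflamed cell its condition and ImmGen class. Doublets had been removed from the inflammation library by the authors; no doublet caller was run on the healthy libraries, and no correction for free RNA was made. The deposited counts are not normalized.

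From the deposited counts, UMIs were summed per library over cells with S100a8 and S100a9 at 3% or more of UMIs (healthy) or over GN cells per condition. Healthy tissues were compared with edgeR 4.0.16 (R 4.3.3, limma 3.58.1) by the quasi-likelihood test, with TMM scaling, filterByExpr, run as a block and a Benjamini-Hochberg adjusted p of 0.05, restricted to genes listed in all 6 libraries. The run pairs the libraries, since its tissues were taken from the same animals. Deviations from tissue means of same-run libraries correlated at 0.683 (blood and bone marrow), 0.684 (blood and spleen) and 0.656 (bone marrow and spleen) over 6588 genes. DESeq2 1.42.0 was an alternative. Replicates are pools. With run as a block, the p-values measure how far the differences between tissues disagreed between the 2 runs, with a common spread estimated over all tissues.

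Conditions of the inflammation library, with 1 pool each, were described by CPM with exact 95% Poisson intervals, ratios with exact conditional binomial intervals, and shares of cells with Clopper-Pearson intervals, after thinning to 500 (healthy) or 1000 UMIs (inflammation), all for counting error only. At 0 UMIs, 3 counts gave the upper limit. Genes were called at 2-fold with at least 20 UMIs over both conditions. Python 3.11.15, numpy 2.4.6, scipy 1.17.1, pandas 2.3.3 and matplotlib 3.10.9 were used, and the tests were tried on simulated data with known answers. Named genes were the 5 ligands, up to 4 of the most abundant genes of each pathway list (CXC ligands and receptors, shedding proteases, NF-kB, mediators, both interferon responses, immediate early, mRNA decay, secondary granule) and the 5 genes most and least detected with a ligand. The ligands and lists were chosen with earlier results of these data known. Gene positions came from GENCODE and promoters from RefSeq (both GRCm38); Cxcl16 had no promoter entry.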

Additional observations from a re-analysis of the deposited data

Results flagged for a closer look

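The 3 values below came from barcodes that the comparisons left out, those under the S100a8 and S100a9 limit in healthy libraries, and stood above the level in the neutrophils of the same library. In run 1 blood, Cxcl10 had 23 UMIs in 3 of 282 such barcodes, 15 of them in 1 barcode (37.8 CPM, against 1.47 CPM in neutrophils). All 3 had a monocyte or macrophage marker, and these markers took 0.731% of their UMIs against 0.311% in all barcodes under the limit. In run 2 blood, Cxcl16 had 6 UMIs in 4 of 981 such barcodes (2.44 against 0.287 CPM), and monocyte or macrophage markers took 0.322% of their UMIs against 0.0159%. In run 2 spleen, Cxcl16 had 20 UMIs in 11 of 2343 such barcodes (4.81 CPM, against 0 in neutrophils). Of the 11, 4 had a monocyte or macrophage marker (0.262% of UMIs against 0.0240%) and 5 had a B-cell marker, as did 1562 of the 2343. The part of monocytes, macrophages or B cells in these values was not tested.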

How the results depend on the processing

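The 9 ratios of Cxcl2, Cxcl3 and Cxcl10 at the sites stayed at 2-fold or more over healthy blood under every alternative run (log2 2.47 to 7.84), and no called value changed sign. TMM scaling gave Cxcl2 log2 ratios of 0.15, 5.70, 5.92 and 6.97 in arthritic blood, joint, peritoneum and lung, Cxcl3 -0.15, 3.45, 5.18 and 7.84, and Cxcl10 -0.51, 4.03, 7.02 and 4.04. Cells with at least 1000 UMIs, added after seeing the data, gave Cxcl2 0.012, 5.56, 5.42 and 6.49, Cxcl3 3.29, 4.64 and 7.33 at the sites, and Cxcl10, which moved most, 4.51, 7.20 and 4.10 there in place of 3.47, 6.11 and 3.14. Without the 1% of cells highest in it, Cxcl10 was at 2.47 in the joint and 7.65 in the peritoneum. The ligands of Cxcl2, Cxcl3 and Cxcl10 with joint share intervals above healthy blood were 2, and 3 at 2000 UMIs. Cxcl3 intervals by Cxcl2 were apart at 3 sites, and at 2 without thinning. Of 60 shares by condition 44 moved past their interval.

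In healthy tissues 2037, 320 and 11 genes were called in blood over bone marrow, spleen over bone marrow and spleen over blood. Without the replicate block the counts were 259, 0 and 0 (678 and 425 genes in the spleen contrasts at an unadjusted p under 0.05). DESeq2 gave 1321, 308 and 30. Spleen over blood gave 64 and 31 with the S100 limit at 1% and 10%, 2 with a filter on mitochondrial UMIs and genes per cell, and 4 with unlisted genes at 0, a setting chosen after seeing the data. That setting also gave 1693 and 215 for the other contrasts. Leaving out 1 library gave 499 to 2663, 51 to 1226 and 0 to 231 (0 without run 2 blood, where 580 genes had an unadjusted p under 0.05). Past 1.5 times were blood 1 (499), blood 2 (677) and bone marrow 2 (1042) for the first contrast; for the second blood 1 (203), blood 2 (197), bone marrow 1 (789) and 2 (161), spleen 1 (1226) and 2 (51); for the third blood 1 (6), bone marrow 1 (230) and 2 (231), spleen 1 (48) and 2 (164). The receptor calls in blood over bone marrow of Cxcr1, Cxcr2 and Cxcr4 held in 31 of 39 refits and lost significance in 8, with the same sign in all. The ligands themselves had no value under these settings, except with unlisted genes at 0, as none entered that test. The cause of these shifts was not tested.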
